A study of Homo sapiens with 17 samples.

Results

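The genes described here were the protein-coding genes of human chromosome 19 whose symbol is ZNF followed by a number, 240 of the 62754 gene rows in the tables. Positions and symbols came from GENCODE 44 on GRCh38, to which the Ensembl identifiers of the tables were matched. Most of these genes encode Krüppel-type zinc finger proteins, in which a tandem array of finger modules reads DNA, and many carry a KRAB domain at the start of the protein that recruits the corepressor TRIM28 (KAP1) and, through it, the H3K9 methyltransferase SETDB1. They arose by repeated tandem duplication, so neighbours on the chromosome are often close relatives, and many bind transposable elements and help to keep them silent. Their 3′ exons are themselves covered by H3K9 methylated chromatin in many cell types. The 240 proteins held a median of 12 fingers of the classical spacing, from 1 in ZNF428 to 36 in ZNF208. In chromosomal order, with a gap of over 1 Mb starting a new block, 231 of them fell into 9 clusters of 5 or more members and the other 9 lay outside.

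The samples were 17 polyA-selected RNA-seq libraries of IMR90 ER:RAS cells, human lung fibroblasts that carry, from a retroviral vector, a fusion of oncogenic RAS to the estrogen receptor ligand-binding domain, so that 4-hydroxytamoxifen (4OHT) switches RAS on and drives the cells into senescence. All groups carried the fusion, were transfected with an siRNA 1 day before induction and were collected 7 days after it. The groups were DMSO with the non-targeting siRNA siNT (not induced, 5 libraries), 4OHT with siNT (senescent, 6 libraries) and 4OHT with siSMARCA4 (senescent with knockdown of SMARCA4, the ATPase of the BAF chromatin remodelling complex, 6 libraries). There was no DMSO group with siSMARCA4, so the effect of the knockdown in growing cells was not measured. In the labels each siRNA has the number 2 or 4, and each library a tag ending in V or VM whose meaning is not given; all 6 of the 4OHT siNT libraries end in VM, as do 3 of 6 siSMARCA4 and 3 of 5 DMSO libraries. No label says that the libraries of a group came from separate cultures, so the p-values measure the spread between libraries, which may be technical, and they all come from a single cell line. In bulk RNA a lower level can mean fewer cells with a transcript or less of it per cell, and these cannot be told apart. Levels are in CPM, counts scaled to a library of 1000000 after TMM normalization, a call is an edgeR quasi-likelihood test with a Benjamini-Hochberg adjusted p under 0.05 over the 19473 genes tested, and every adjusted p below is from that fit.

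SMARCA4 itself was at 168 to 215 CPM in DMSO, 253 to 286 in 4OHT siNT and 68.4 to 127 in the siSMARCA4 libraries, with no overlap between any of the groups (log2 fold change −1.61, SE 0.13, adjusted p = 5.1e-07 for siSMARCA4 against siNT in 4OHT). Library totals ran from 39.1 to 68.98 M counts. The senescence markers CDKN1A, CDKN2A, CDKN2B, IL6, CXCL8 and IL1B all rose with 4OHT, and MKI67, LMNB1 and CCNA2 all fell. The 9 fibroblast markers summed to 28911 to 35027 CPM in DMSO, 17848 to 27790 in 4OHT siNT and 9393 to 16555 with siSMARCA4, and 8 of the 9 fell with the knockdown. Of the epithelial list, KRT8, KRT18 and EPCAM fell with the knockdown and CDH1 was at most 0.0939 CPM in any library; the list summed to 71.0 to 92.8 CPM in DMSO, 65.3 to 81.8 in 4OHT siNT and 35.3 to 58.4 with siSMARCA4. The endothelial markers PECAM1, CDH5 and KDR summed to at most 1.63 CPM, and of the leukocyte list PTPRC and CD3E were at most 0.131 CPM, nearly all of its 20.04 to 30.5 CPM being CD68. Mitochondrial transcripts took 2.87 to 3.46% of counts in DMSO, 4.53 to 5.50% in 4OHT siNT and 4.54 to 7.81% with siSMARCA4. The part of these shifts in the results below was not tested.

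Of the 240 members, 228 passed the filter on low counts and 12 did not. Those 12 were ZNF556, ZNF208, ZNF676, ZNF729, ZNF98, ZNF99, ZNF723, ZNF728, ZNF536, ZNF541, ZNF534 and ZNF835, with 0 to 70 counts each over all libraries together. Their group differences were not tested in the edgeR fit. Together the 240 genes took 0.178 ± 0.00314% of all counts in DMSO (SD, n = 5), 0.183 ± 0.0102% in 4OHT siNT (n = 6) and 0.198 ± 0.00600% with siSMARCA4 (n = 6). The highest levels per kilobase of exon belonged in every group to ZNF358, ZNF428 and ZNF146, the last a short finger-only protein also called OZF. ZNF358 was at 43.9, 48.2, 49.7, 53.4 and 60.3 CPM in DMSO, 24.8 to 32.7 (median 30.2) in 4OHT siNT and 23.2 to 30.4 (median 26.8) with siSMARCA4, and fell with 4OHT (log2 fold change −0.79, SE 0.09, adjusted p = 9.0e-07).

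Induction of RAS moved the members in both directions. Between 4OHT and DMSO in siNT cells 116 of 228 passed the test (50.9%, against 54.4% of all genes tested). Of the 228, 60 rose (26.3%, against 27.0% of all genes) and 56 fell (24.6%, against 27.4%), with a median log2 fold change of 0.02 (0.00 over all genes). The falls included 5 members that were over the filter cutoff in fewer than 5 of the 12 4OHT libraries (ZNF492, ZNF730, ZNF724 and ZNF257 of cluster 4, and ZNF114), whose entry into the test rested on a high DMSO level; without them 51 of 223 fell (22.9%). The balance depended on scaling and on siRNA number: without TMM factors 48 rose and 77 fell, and the median was −0.088. TMM factors were 0.999 to 1.08 in DMSO and 0.949 to 0.991 in 4OHT siNT. Leaving them out therefore shifts all genes downward, and shares over all genes in that fit are not given. With number 2 alone 59 rose and 39 fell (25.9% and 17.1%, against 25.9% and 27.4% of all genes; median 0.08), and with number 4 alone 30 rose and 46 fell (13.2% and 20.2%, against 20.0% and 23.3%; median −0.12). Number 4 has only 2 DMSO libraries, and number 2 has 3. Over both numbers, the other protein-coding genes of chromosome 19 leaned upward with 4OHT, 36.6% higher and 20.5% lower (median 0.14). Other genes inside the clusters did so too, with 30.3% and 16.2% (median 0.14). For numbered ZNF genes of other chromosomes the share was 27.5% in each direction (median −0.02). Libraries of the groups did not overlap for 48 members in the higher direction (19.6% of all genes) and for 36 in the lower (20.0%). Of the members called with knockdown of SMARCA4 in 4OHT, most were higher in the fit over both siRNA numbers. Against siNT 47 passed (20.6%, against 24.2% of all genes): 42 rose (18.4%, against 10.4% of all genes) and 5 fell (2.19%, against 13.8%), and the median was 0.09 (−0.02 over all genes). The libraries did not overlap for 16 members in the higher direction (4.54% of all genes) and 5 in the lower (7.49%), of which 14 and 4 also passed the test. The number of calls rested on single libraries: 31 members passed without the 4OHT siNT library 4-1VM and 29 without 4-2VM. Shares over all genes in these fits are not given, so the drop cannot be read as particular to the members. The 218 numbered ZNF genes of other chromosomes that were tested split otherwise, with 21 higher and 36 lower (median −0.00), as did the other 852 protein-coding genes of chromosome 19, with 80 higher and 121 lower (median −0.02). The 228 other genes tested that lie between the members inside the clusters stood in between, with 28 higher and 26 lower (median 0.06). These are counts, and the difference between the sets was not tested. Both comparisons use the same 4OHT siNT libraries, so their values for a gene are not independent of each other.

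**Figure D1:**
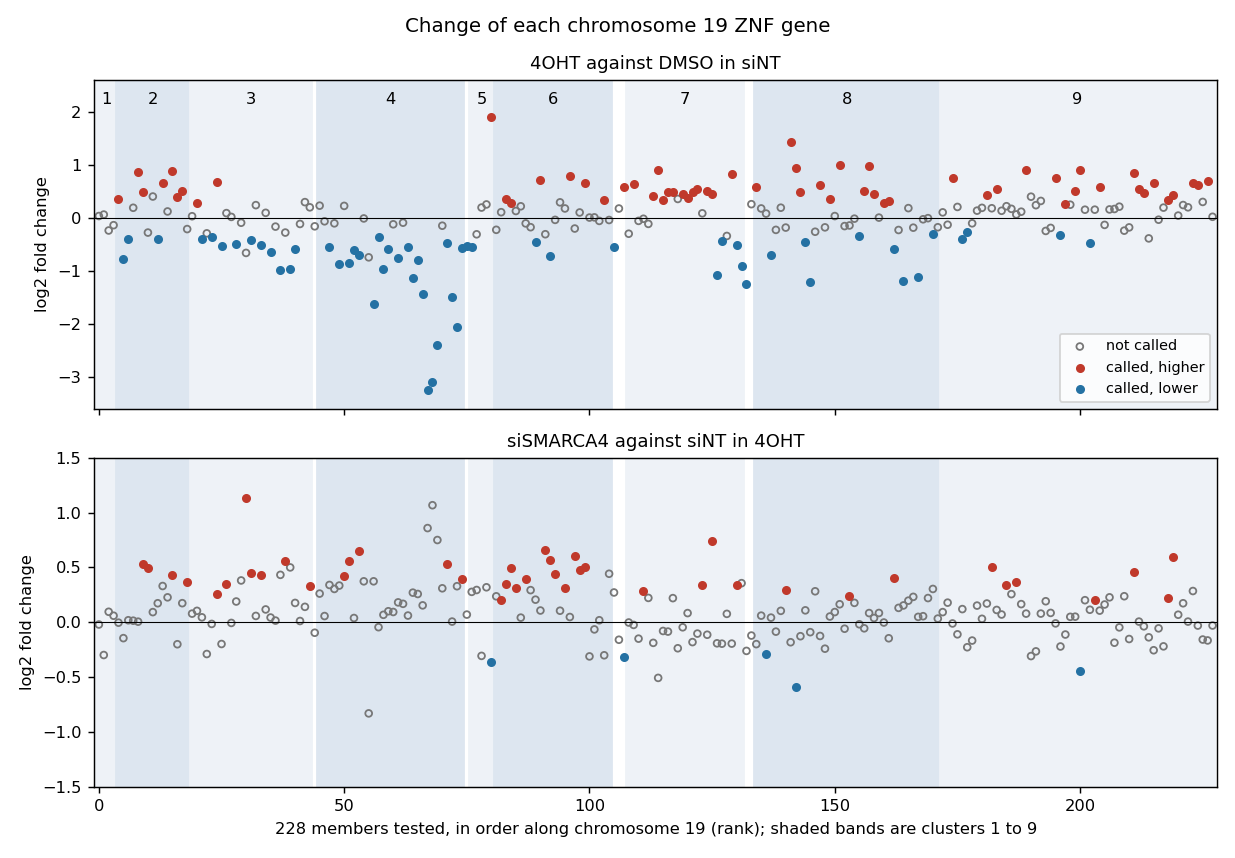
Log2 fold change (y axis) of the 228 members tested, in their order along chromosome 19 (x axis, rank), for 4OHT against DMSO in siNT (top) and for siSMARCA4 against siNT in 4OHT (bottom). Filled points passed the edgeR test, red higher and blue lower, open points did not, and the bands are clusters 1 to 9: no point of cluster 4 is red in the top panel, its lowest points, ZNF492, ZNF730 and ZNF724, reached the test through high DMSO libraries, and the bottom panel has 42 red and 5 blue points.

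Calls in senescence differed by level, to a degree that depended on how level was taken. Members were split at the median of their mean over all libraries, 5.10 CPM, with the 5 members that entered on their DMSO level left out. Of the 109 at or below it 14 rose and 39 fell with 4OHT (12.8% and 35.8%), and of the 114 above it 46 rose and 12 fell (40.4% and 10.5%). This mean includes the 12 4OHT libraries, so a rise lifts a gene over the line and a fall takes it below. Of all genes tested, none left out, 20.4% rose and 27.3% fell at or below the same value, and 32.1% and 27.6% above it. For protein-coding genes the shares were 21.9% and 40.8% at or below it, and 32.0% and 27.9% above it. Split instead by the DMSO level alone, at 5.03 CPM, a setting chosen after seeing the data, 22 rose and 30 fell of the 109 less expressed members (20.2% and 27.5%), and 38 rose and 21 fell of the 114 more expressed ones (33.3% and 18.4%). Over all genes at any level 27.0% rose and 27.4% fell, and shares over all genes split by DMSO level are not given. With cluster 4 also left out, the DMSO split gave 22 higher and 20 lower of 92, and 38 higher and 14 lower of 105. The difference was not tested.

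By position, counts of calls are to be read against 27.0% higher and 27.4% lower over all genes with 4OHT, and 10.4% and 13.8% with siSMARCA4, and differences between clusters were not tested. Cluster 1 (ZNF554 to ZNF77, chr19:2819868-2944971) had 4 members tested and no call in either comparison. Cluster 2 (ZNF557 to ZNF846, chr19:7069703-9793180, 15 tested) had 7 members higher and 3 lower with 4OHT, and 4 higher with siSMARCA4. Cluster 3 (ZNF653 to ZNF791, chr19:11483427-12640098, 25 tested) had 2 higher and 10 lower with 4OHT and 7 higher with the knockdown. Over 30 other ways of fitting, 3 to 12 of its members fell with 4OHT and 0 to 8 rose with the knockdown. Cluster 4 (ZNF101 to ZNF254, chr19:19668796-24129968, 30 tested of 37), which ends near the centromere, had none higher and 21 lower with 4OHT (70.0%, or 17 of 26 without the 4 members named above), and 5 higher with siSMARCA4. Cluster 5 (ZNF302 to ZNF792, chr19:34677639-34964229, 5 tested) had 1 call in each direction with 4OHT and 1 lower with siSMARCA4. Cluster 6 (ZNF565 to ZNF573, chr19:36182276-37817300, 24 tested) had 6 higher and 2 lower with 4OHT, and with siSMARCA4 12 higher and none lower. Cluster 7 (ZNF575 to ZNF296, chr19:43525497-45076478, 24 tested) had 13 higher and 4 lower with 4OHT and 4 higher with siSMARCA4. Cluster 8 (ZNF175 to ZNF331, chr19:51571283-53580269, 38 tested) had 12 higher and 8 lower with 4OHT, and 3 higher and 2 lower with siSMARCA4. Cluster 9 (ZNF628 to ZNF446, chr19:55476617-58481230, 56 tested), at the end of the long arm, had 18 higher and 4 lower with 4OHT, and 7 higher and 1 lower with siSMARCA4. Counts of other clusters moved with the fit as well. In the same fits 5 to 14 members of cluster 7 and 11 to 23 of cluster 9 rose with 4OHT, and 2 to 10 of cluster 9 with siSMARCA4.

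**Figure D2:**
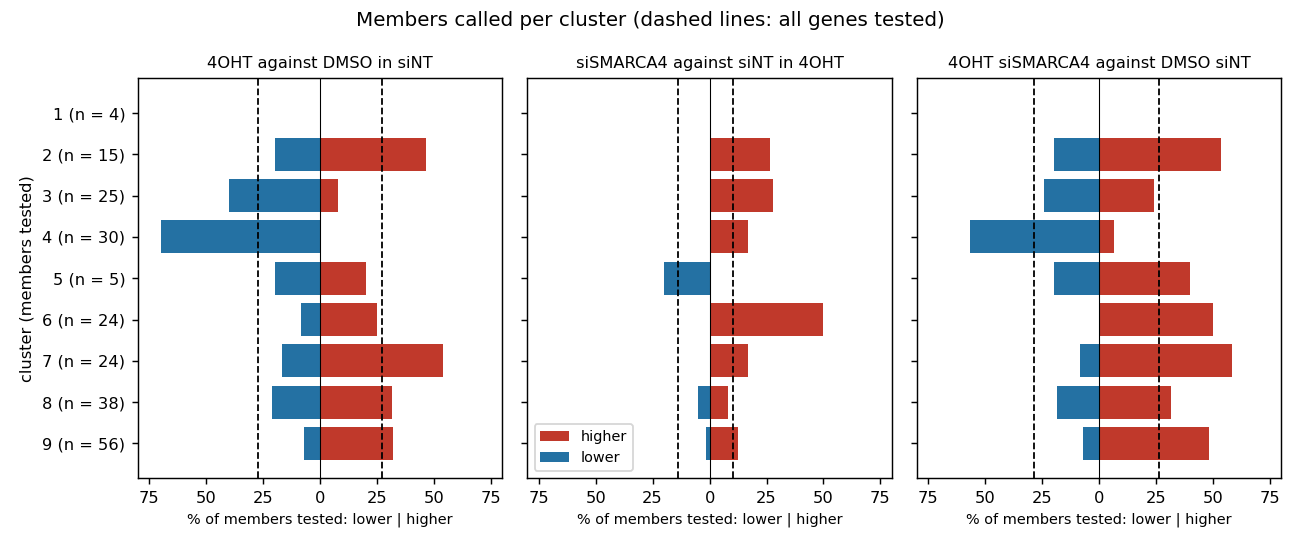
Percent of the members tested in each of the 9 clusters (y axis, with the number tested) that passed the edgeR test, lower to the left and higher to the right (x axis), in the 3 comparisons. Dashed lines are the percentages over all 19473 genes: cluster 4 extends to 70.0% lower with 4OHT, and the longest red bar with siSMARCA4 is that of cluster 6, where 12 of 24 were higher.

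Cluster 4 holds young, primate-expanded zinc finger genes, among them ZNF91 and ZNF93, known as repressors of SVA and of L1 retrotransposons. Sequences are shown for ZNF91, for ZNF492 and ZNF730, which reached the count filter through the DMSO libraries only, and for ZNF792 of cluster 5, the member that rose furthest in senescence. Shown is a stretch of 84 coding bases in the finger array of these genes, 1 finger and the linker that follows it, in exon 4 of each (GRCh38). It is the first finger of each gene that another finger follows after a linker of standard length. The stretches were not matched as counterparts, and these genes do not stand for the whole cluster. Capitals mark the codons of the cysteine pair and the histidine pair that hold the zinc.
ZNF492, chr19:22664096-22664179, plus strand: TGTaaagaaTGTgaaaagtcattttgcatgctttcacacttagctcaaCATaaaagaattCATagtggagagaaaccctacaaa
ZNF730, chr19:23145732-23145815, plus strand: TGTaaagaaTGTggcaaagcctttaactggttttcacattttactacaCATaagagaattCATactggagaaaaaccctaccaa
ZNF91, chr19:23362094-23362177, minus strand: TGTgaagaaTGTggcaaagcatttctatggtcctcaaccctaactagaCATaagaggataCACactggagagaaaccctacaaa
ZNF792, chr19:34958922-34959005, minus strand: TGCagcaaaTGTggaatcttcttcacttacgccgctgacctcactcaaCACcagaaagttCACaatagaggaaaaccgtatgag
Of the 84 bases, ZNF492 shared 65 with ZNF730 (77.4%), ZNF730 shared 66 with ZNF91 (78.6%) and ZNF492 shared 60 with ZNF91 (71.4%). ZNF792 shared 47 with ZNF730 (56.0%) and 45 with each of the others (53.6%). Similarity between members also bears on counting. Of every 110-base window of exon, 18.1% recurred elsewhere in the exons of chromosome 19 for ZNF492, 2.67% for ZNF730 and 42.2% for ZNF724, and none for ZNF85, ZNF681, ZNF257 and ZNF91, so counts of ZNF724 and ZNF492 in particular are uncertain.

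The promoters of cluster 4 were searched for short runs of letters, and their likeness to each other was not measured. The 120 bases before the RefSeq start site (GRCh38.p14) are shown for the same genes, with capitals for CCAAT, for GGGCGG and for a run of letters, GGGCGGCTTCCGGGAT, that contains GGGCGG and, on the other strand, CCGGAAG.
ZNF492, chr19:22634204-22634323, plus strand: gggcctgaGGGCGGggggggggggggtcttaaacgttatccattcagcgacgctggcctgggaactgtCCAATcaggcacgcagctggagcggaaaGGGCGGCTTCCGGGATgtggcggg
ZNF730, chr19:23116905-23117024, plus strand: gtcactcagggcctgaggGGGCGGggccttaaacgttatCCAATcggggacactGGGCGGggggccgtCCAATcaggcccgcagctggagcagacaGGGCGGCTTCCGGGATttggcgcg
ZNF91, chr19:23395472-23395591, minus strand: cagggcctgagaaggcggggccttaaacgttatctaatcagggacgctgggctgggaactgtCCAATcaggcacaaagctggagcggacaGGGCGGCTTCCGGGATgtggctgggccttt
ZNF792, chr19:34964230-34964349, minus strand: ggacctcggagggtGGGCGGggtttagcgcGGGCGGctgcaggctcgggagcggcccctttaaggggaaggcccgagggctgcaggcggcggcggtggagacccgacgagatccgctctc
In ZNF730 this window lies in an intron of a longer GENCODE transcript. RefSeq windows of 300 bases (250 before and 50 after the start) were found for 210 of the 240 members, 261 windows of the 35116 in the table, and both strands were searched. CCAAT, the box bound by NF-Y, stood in 29 of the 30 windows of cluster 4 (96.7%), in 49.0% of all members' windows and in 34.6% of all windows. It was also frequent in cluster 3, in 23 of 26 windows (88.5%), and in all 6 windows of cluster 1, stood in 56.9% of those of cluster 9 and in 2 of the 4 of cluster 5, and was in 20.8 to 28.9% of those of clusters 2, 6, 7 and 8. The letters CCGGAAG, typical of ETS factors, stood in 73.3% of the cluster 4 windows, 39.8% of all members' windows, 31.0% of those of numbered ZNF genes on other chromosomes and 10.3% of all. They were also in 3 of the 4 windows of cluster 5, in 55.6% of those of cluster 8 and in 53.4% of those of cluster 9, and in 7.69% of those of cluster 3. The run, chosen from these windows as the longest that starts with GGGCGG and stands in at least 9 of them, was then counted: 9 of 30 windows of cluster 4 held it, no window of the other members did, and 13 of all 35116 did (0.037%). Without that condition the longest shared run had 23 bases. The 9 genes with the GGGCGG run were ZNF85, ZNF43, ZNF492, ZNF723, ZNF730, ZNF724, ZNF91, ZNF681 and ZNF726. Without ZNF492, ZNF730 and ZNF724, 4 of 5 tested fell with 4OHT, and ZNF91 did not pass. Of 18 genes of the cluster tested without the run in their window, likewise without ZNF257, 11 fell. As the run was picked from these windows, the counts are a description only. The median ratio of observed to expected CpG was 0.443 in the windows of cluster 4, 0.765 over members and 0.579 over all windows. Such matches describe the letters of the windows and not the binding of a factor.

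In senescence 28 of the 30 members of cluster 4 that were tested had a negative log2 fold change, with a median of −0.66, and 21 passed the test. Without ZNF492, ZNF730, ZNF724 and ZNF257, which entered the test on their DMSO level, 17 of 26 fell (65.4%, against 27.4% of all genes; median −0.58), and the libraries of the groups did not overlap for 12 of the 26 in the lower direction (20.0% of all genes). Of protein-coding genes at or below 5.10 CPM, where 25 of the 30 members tested lie, 40.8% fell with 4OHT. ZNF492 (ENSG00000229676, chr19:22634324-22667671, plus strand) was at 0.367, 0.386, 0.426, 0.434 and 0.557 CPM in the DMSO libraries and ranged from 0.00 to 0.0947 (median 0.0370) in 4OHT siNT and from 0.0391 to 0.141 (median 0.0668) with siSMARCA4. Every DMSO library lay above every 4OHT library. These are few counts: 119 over the 5 DMSO libraries, 13 over the 6 of 4OHT siNT, 1 of which had none, and 26 with siSMARCA4. ZNF730 (ENSG00000183850, chr19:23075210-23147221, plus strand) was at 0.378, 0.387, 0.468, 0.470 and 0.646 CPM in DMSO, 0.00 to 0.0890 (median 0.0476) in 4OHT siNT and 0.0293 to 0.181 (median 0.128) with siSMARCA4, again with no overlap. Both genes passed the count filter through the DMSO libraries only and could enter the test only by being higher there, so their values are a description and no test is given for them.

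ZNF85 (ENSG00000105750, chr19:20923222-20950697, plus strand), more abundant, was at 2.12, 2.92, 2.93, 2.97 and 3.14 CPM in DMSO, 0.703 to 1.12 (median 0.894) in 4OHT siNT and 0.732 to 1.43 (median 1.22) with siSMARCA4. All DMSO libraries were above all others, and the fall left 32.3% of the DMSO level (log2 fold change −1.63, SE 0.18, adjusted p = 2.8e-07). ZNF726 (−2.06) and ZNF681 (−1.49) fell without overlap too. ZNF93, which binds a promoter element of primate L1 families, was at 2.94, 3.51, 3.96, 3.98 and 4.01 CPM in DMSO, 1.58 to 2.44 (median 2.02) in 4OHT siNT and 2.21 to 3.13 (median 2.34) with siSMARCA4, and fell to 54.3% of its level (log2 fold change −0.88, SE 0.14, adjusted p = 3.7e-05). ZNF91, with 31 fingers of this spacing, did not pass: it was at 9.49, 9.53, 10.7, 10.9 and 11.1 CPM in DMSO, 6.92 to 11.7 (median 9.31) in 4OHT siNT and 9.91 to 12.5 (median 11.8) with siSMARCA4 (log2 fold change −0.15, SE 0.12, adjusted p = 0.32). Its 4OHT siNT libraries of number 4, at 6.92 to 7.90 CPM, lay below every DMSO library. Within that number, 3 libraries against 2 in DMSO, it fell (log2 fold change −0.59, adjusted p = 0.01). The 4OHT siNT libraries of number 2 were at 10.7 to 11.7 CPM (log2 fold change 0.13, adjusted p = 0.26). The first member of the cluster, ZNF101, did not pass either (log2 fold change 0.23), and the last, ZNF254, fell (−0.57).

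**Figure D3:**
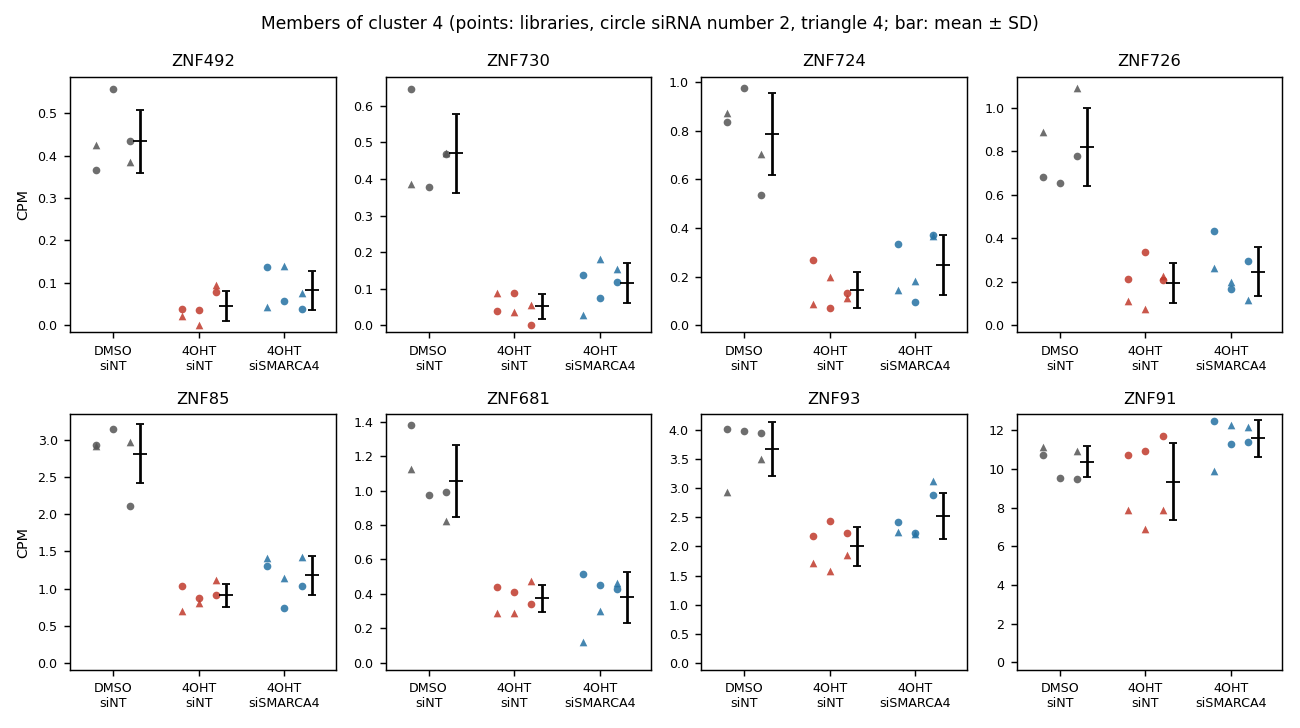
CPM (y axis, linear) of 8 members of cluster 4 in every library of the 3 groups, circles for siRNA number 2 and triangles for number 4, with bars for mean ± SD. For the first 7 members all DMSO libraries lie above all 4OHT siNT libraries, which for all of them but ZNF93 was a condition of their choice. ZNF492, ZNF730 and ZNF724 also reached the test through high DMSO libraries. ZNF91 overlaps and its 4OHT siNT libraries part by siRNA number, 10.7 to 11.7 CPM for number 2 and 6.92 to 7.90 for number 4.

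Over the whole cluster the summed level was 112 ± 8.06 CPM in DMSO (SD, n = 5), 79.4 ± 14.9 in 4OHT siNT (n = 6) and 94.6 ± 6.95 with siSMARCA4 (n = 6). The ranges were 100 to 123, 62.0 to 96.0 and 87.0 to 106, so the 4OHT siNT libraries lay below all of DMSO. Leaving out the same 4 members, 15 of the 24 with at most 5% of shared windows fell. Over 30 ways of fitting, again without those 4, 13 to 17 members fell, at most 1 rose, and the median lay between −0.82 and −0.46. Of the other genes inside the cluster boundaries few passed the count filter. Of 3 other protein-coding genes 2 were tested, and both fell. Of 174 genes of other types 13 were tested, of which 5 fell and 2 rose.

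With siSMARCA4 the same cluster leaned upward: 28 of 30 log2 fold changes were positive (median 0.29), but only 5 members passed, ZNF737 (0.65), ZNF90 (0.56), ZNF675 (0.54), ZNF682 (0.42) and ZNF254 (0.39). Without the 4 members that entered on their DMSO level the median was 0.27. The same 4OHT siNT libraries enter the fall with 4OHT, so the lean is not independent of it. Over the 30 ways of fitting between 0 and 7 passed in the higher direction. ZNF90 and ZNF254 had no overlap between siSMARCA4 and siNT libraries, and 18.1% of the windows of ZNF90 were shared with other genes. The lean differed in size between the siRNA numbers: the median of the 30 was 0.14 between the number 2 libraries and 0.60 between the number 4 libraries. Compared with DMSO, the siSMARCA4 libraries still had 17 members of the cluster lower and 2 higher (median −0.49), or 13 lower of 26 without the 4 members that entered on their DMSO level (median −0.35). Over all genes 28.6% were lower and 26.5% higher in this comparison.

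Outside cluster 4, the strongest rise in senescence was that of ZNF792 (ENSG00000180884, chr19:34956354-34964229, minus strand). It was at 2.67, 3.02, 3.10, 3.41 and 3.57 CPM in DMSO, 11.2 to 12.5 (median 11.6) in 4OHT siNT and 8.45 to 9.62 (median 9.34) with siSMARCA4. The 3 groups were fully separate: 4OHT raised it 3.73-fold (log2 fold change 1.90, SE 0.09, adjusted p = 2.1e-12) and siSMARCA4 lowered it (log2 fold change −0.36, SE 0.08, adjusted p = 0.0024), to a level still 2.90-fold that of DMSO. ZNF432 of cluster 8 was at 13.005, 13.3, 15.7, 17.4 and 20.1 CPM in DMSO, 31.4 to 51.6 (median 44.6) in 4OHT siNT and 32.6 to 45.9 (median 35.4) with siSMARCA4, all 4OHT libraries above DMSO (log2 fold change 1.43, SE 0.15, adjusted p = 1.2e-07). Next to it on the same strand lies ZNF841, whose exons overlap 3.32% of those of ZNF432, and which was at 8.94, 9.15, 9.47, 11.4 and 11.9 CPM in DMSO, 16.5 to 23.1 (median 19.1) in 4OHT siNT and 9.31 to 18.6 (median 12.2) with siSMARCA4. It rose with 4OHT (log2 fold change 0.93, SE 0.15, adjusted p = 2.6e-05) and fell with siSMARCA4, here with overlap of the libraries (log2 fold change −0.59, SE 0.14, adjusted p = 0.0051). Other rises of this size without overlap were those of ZNF808 (1.00) and ZNF468 (0.97) in cluster 8, ZNF460 (0.91) and ZNF550 (0.89) in cluster 9 and ZNF121 (0.88) in cluster 2. The deepest fall in cluster 8 was that of ZNF766. It was at 8.76, 9.84, 9.97, 10.2 and 11.04 CPM in DMSO, 3.21 to 5.44 (median 4.37) in 4OHT siNT and 3.17 to 4.87 (median 3.97) with siSMARCA4, and fell with 4OHT (log2 fold change −1.21, SE 0.14, adjusted p = 5.7e-07). In cluster 7 the 13 rises were moderate, from 0.34 in ZNF155 to 0.90 in ZNF221, and ZNF233 had the largest fall (−1.07). Other genes there rose too: of 22 other protein-coding genes tested inside cluster 7, 14 rose and 3 fell (median 0.47). Of 13 genes of other types, 2 rose and 1 fell. Inside cluster 9, 12 of 32 other protein-coding genes rose and 2 fell, and 13 of 27 genes of other types rose and none fell.

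The rises with siSMARCA4 were small and most frequent, by share of members, in cluster 6. Its summed level was 203 ± 7.87 CPM in DMSO, 230 ± 24.1 in 4OHT siNT (200 to 252) and 275 ± 13.4 with siSMARCA4 (263 to 299), so that every siSMARCA4 library was above every other. The 12 members called were ZNF146, ZNF566, ZNF260, ZNF529, ZNF461, ZNF345, ZNF829, ZNF568, ZNF383, ZNF527, ZNF569 and ZNF570, with log2 fold changes from 0.21 to 0.65. Their positions run through the cluster, with members that did not pass, such as ZNF382 (0.04) and ZNF420 (0.11), between them. Over 30 ways of fitting, 4 to 12 members rose. ZNF260 (ENSG00000254004, chr19:36510687-36528271, minus strand) was at 17.8, 18.2, 18.3, 20.04 and 20.6 CPM in DMSO, 19.0004 to 27.1 (median 22.8) in 4OHT siNT and 27.6 to 38.7 (median 31.8) with siSMARCA4 (log2 fold change 0.49, SE 0.10, adjusted p = 0.0023). ZNF527 (ENSG00000189164, chr19:37371061-37393066, plus strand) was at 3.56, 3.74, 3.91, 4.55 and 4.68 CPM in DMSO, 3.12 to 4.08 (median 3.58) in 4OHT siNT and 4.89 to 6.55 (median 5.28) with siSMARCA4 (log2 fold change 0.61, SE 0.11, adjusted p = 0.00062). The siSMARCA4 libraries were above both other groups for both genes. ZNF345 was at 0.850, 0.940, 1.16, 1.47 and 1.69 CPM in DMSO, 0.863 to 1.17 (median 0.973) in 4OHT siNT and 1.42 to 1.71 (median 1.56) with siSMARCA4, above 4OHT siNT and overlapping DMSO (log2 fold change 0.65, SE 0.16, adjusted p = 0.0073). ZNF570 was at 5.08, 5.52, 5.52, 5.57 and 5.88 CPM in DMSO, 7.05 to 10.04 (median 8.69) in 4OHT siNT and 10.4 to 14.1 (median 12.2) with siSMARCA4. It was higher with 4OHT and with siSMARCA4 (log2 fold changes 0.65 and 0.50, adjusted p = 2.3e-05 and 0.0012). Its start lies inside the gene of ZNF569, which runs from there on the opposite strand and rose as well with the knockdown (0.48).

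Beyond cluster 6, the steepest rise with no overlap was that of ZNF235 in cluster 7 (ENSG00000159917, chr19:44228729-44305046, minus strand). It was at 1.39, 1.41, 1.78, 1.85 and 1.88 CPM in DMSO, 1.89 to 2.47 (median 2.34) in 4OHT siNT and 3.38 to 4.09 (median 3.85) with siSMARCA4, each group apart from the others (log2 fold change 0.74, SE 0.11, adjusted p = 0.00017). It passed with either siRNA number alone, at 0.82 for number 2 and 0.75 for number 4. A larger fold was fitted for ZNF878 of cluster 3 (1.13, adjusted p = 0.034), but with 173 counts over all libraries and overlap between the groups; it is outside the rule for named genes and was picked from its value. ZNF583 (0.50) and ZNF814 (0.46) in cluster 9 rose without overlap. ZNF274, which recruits SETDB1 to the 3′ exons of other zinc finger genes, was at 10.8, 12.9, 13.6, 13.7 and 14.8 CPM in DMSO, 16.97 to 18.9 (median 17.5) in 4OHT siNT and 18.5 to 32.3 (median 27.6) with siSMARCA4, where 1 library lay within the 4OHT siNT range and the others above (log2 fold change 0.60, SE 0.11, adjusted p = 0.001). It was also higher with 4OHT against DMSO, without overlap (log2 fold change 0.42, SE 0.12, adjusted p = 0.0055). ZNF121 rose with the knockdown (log2 fold change 0.43, SE 0.13, adjusted p = 0.021), at 21.9 to 30.2 (median 25.6) CPM in 4OHT siNT and 29.6 to 48.04 (median 32.8) with siSMARCA4.

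Falls with siSMARCA4 were 5. Beside ZNF792 and ZNF841 they were ZNF550 of cluster 9, ZNF526, which lies outside the clusters, and ZNF649 of cluster 8. ZNF550 was at 4.99, 5.37, 5.85, 6.70 and 6.91 CPM in DMSO, 9.86 to 12.02 (median 11.3) in 4OHT siNT and 7.53 to 9.15 (median 7.97) with siSMARCA4, so the knockdown libraries lay between the other groups (log2 fold change −0.44, SE 0.09, adjusted p = 0.002). ZNF526 was lower with siSMARCA4 by 0.32 (adjusted p = 0.016) and higher with 4OHT by 0.58. ZNF649 fell by 0.29 (adjusted p = 0.047) and did not pass with 4OHT (0.08). The call of ZNF649 was lost in 23 of 30 other fits.

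**Figure D4:**
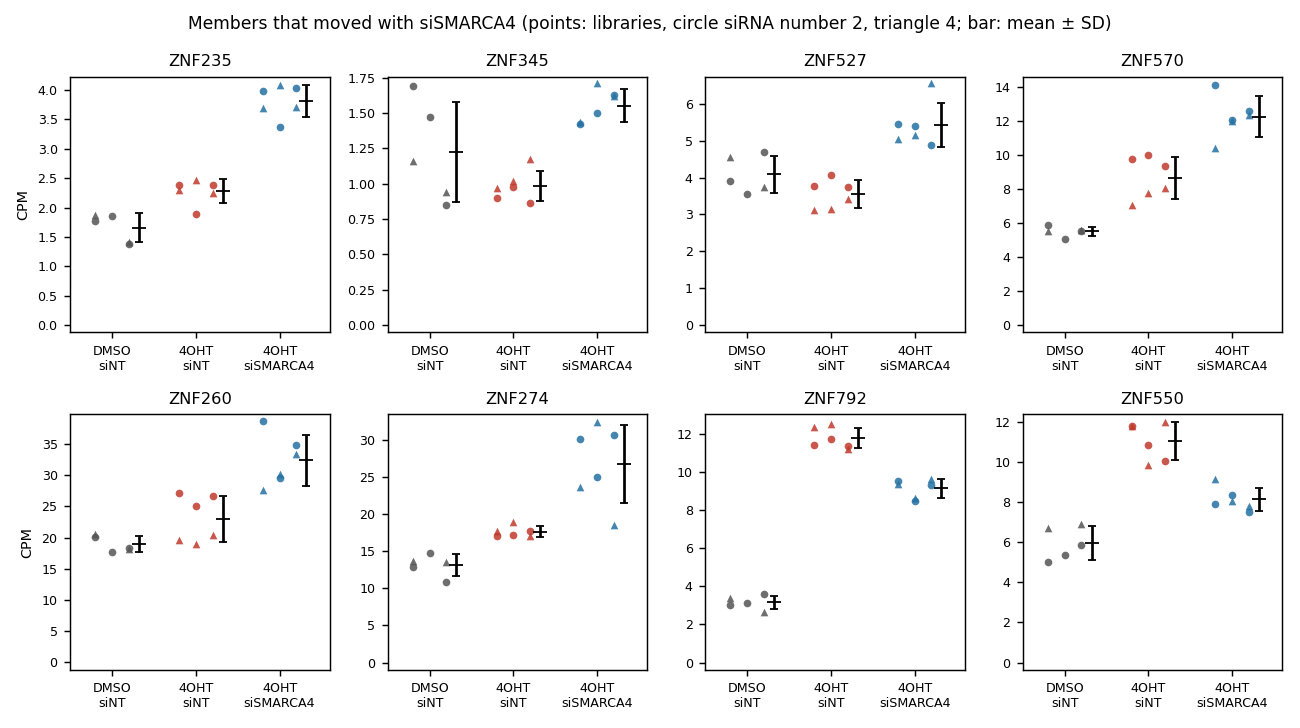
CPM (y axis, linear) of 8 members called between siSMARCA4 and siNT in 4OHT, in every library of the 3 groups, circles for siRNA number 2 and triangles for number 4, with bars for mean ± SD. For ZNF235, ZNF345, ZNF527, ZNF570 and ZNF260 all siSMARCA4 libraries lie above all 4OHT siNT libraries, ZNF274 overlaps in 1 library, and ZNF792 and ZNF550 lie below. Except for ZNF274 these members were chosen among those without overlap, so their separation was a condition of the choice.

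The comparison can be made within each siRNA number, 3 libraries against 3, and these share no library. The labels do not say whether the numbers name siRNA sequences, nor what joins a siNT and an siSMARCA4 library of the same number, so that setting them against each other is a choice of pairing. With number 2, 18 members rose (7.89%, against 10.8% of all genes) and 13 fell (5.70%, against 12.2%), with a median of 0.08 (0.02 over all genes). With number 4, 14 rose (6.14%, against 3.76%) and none fell (2.43% of all genes), with a median of 0.24 (0.00 over all genes). The share of members that rose was thus above that of all genes with number 4 and in the fit over both numbers, and below it with number 2. The sign was the same for 159 of 228 members (69.7%, against 67.5% of all genes tested), positive for 122 and negative for 37. The 4OHT siNT libraries themselves parted by number, as the members took 0.190 to 0.194% of counts in the libraries of number 2 and 0.172 to 0.177% in those of number 4, whereas the siSMARCA4 libraries were at 0.189 to 0.207% and 0.196 to 0.201%. In DMSO the ranges were 0.175 to 0.179% and 0.175 to 0.182%. ZNF260, for instance, was at 25.1 to 27.1 CPM in the 4OHT siNT libraries of number 2 and at 19.0004 to 20.5 in those of number 4, and ZNF570 at 9.34 to 10.04 and 7.05 to 8.05. ZNF235, ZNF345 and ZNF274 showed no such split. In cluster 6 the median was 0.14 with number 2 and 0.50 with number 4, and 18 and 23 of its 24 members were positive. In cluster 8 it was −0.01 and 0.24, and in cluster 7 0.04 and −0.05. A direct test of the difference between numbers called 1 member of 228, ZNF880 (1.06% of all genes were called).

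Transposable elements within the clusters were counted in the same tables. Repeat loci inside cluster 4 summed to 25.1 ± 5.43 CPM in DMSO, 19.3 ± 2.36 in 4OHT siNT and 31.3 ± 3.27 with siSMARCA4, a ratio of 1.62 between the last and the one before. The ratio was 1.39 in clusters 3 and 6, 1.43 in cluster 1, 1.24 in cluster 8, 1.25 in cluster 9, 1.17 in cluster 7 and 1.16 in clusters 2 and 5. On chromosome 19 outside the clusters it was 1.17, and over all chromosomes 1.20. These ratios carry no test, and a repeat that lies in a transcribed gene is counted with that gene's RNA.

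**Figure D5:**
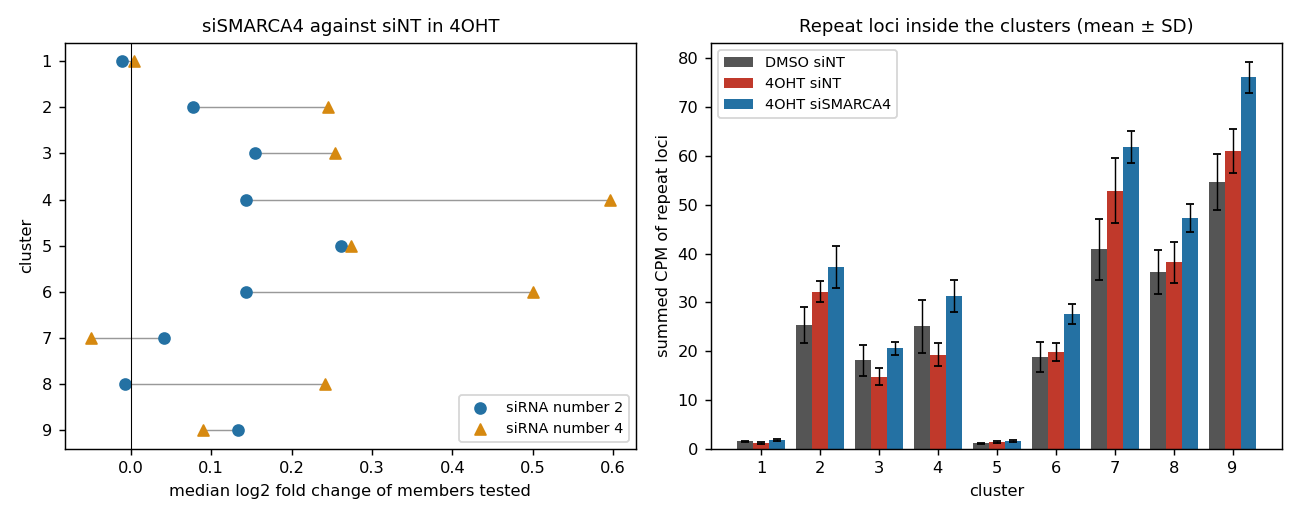
Left, median log2 fold change (x axis) of the members of each cluster (y axis) for siSMARCA4 against siNT in 4OHT, computed within siRNA number 2 (circles) and number 4 (triangles): clusters 4 and 6 stand at 0.14 with number 2 and at 0.60 and 0.50 with number 4. Right, summed CPM of repeat loci inside each cluster (x axis) in the 3 groups, bars for the mean and whiskers for the SD: cluster 4 goes from 19.3 in 4OHT siNT to 31.3 with siSMARCA4.

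Set against growing cells, the senescent cells with knockdown had 127 of 228 members called (55.7%, against 55.1% of all genes), 84 higher (36.8%, against 26.5% of all genes) and 43 lower (18.9%, against 28.6%), with a median of 0.14 (−0.01 over all genes). The lean was not particular to the members. Of the other protein-coding genes of chromosome 19, 35.4% were higher and 21.6% lower (median 0.12). Other genes inside the clusters had 36.4% higher and 15.8% lower (median 0.24). For numbered ZNF genes of other chromosomes the shares were 24.8% and 27.1% (median −0.01). Without overlap the genome-wide shares were 16.4% higher and 19.9% lower. By cluster, 12 of 24 members were higher in cluster 6 and none lower, 14 were higher and 2 lower in cluster 7, and 27 were higher and 4 lower in cluster 9, against 2 higher and 17 lower in cluster 4, or 2 and 13 of 26 without the 4 members with few 4OHT libraries over the cutoff. ZNF814 (1.31), ZNF121 (1.31) and ZNF235 (1.20) rose, and the highest value was again that of ZNF792 (1.54). As this comparison shares libraries with both others, its values add no separate evidence.

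Among 12 members listed for a known role, 5 rose and 1 fell with 4OHT (41.7% and 8.33%, against 27.0% and 27.4% of all genes), and 2 rose and 1 fell with siSMARCA4 (16.7% and 8.33%, against 10.4% and 13.8%). ZNF808, a KRAB protein needed for pancreas development, rose 2.00-fold with 4OHT. ZNF417 (0.47) and its close relative ZNF587 (0.53), which bind endogenous retroviruses of the HERV-K group, rose as well, with 18.9% and 32.7% of their windows shared, and neither passed with siSMARCA4 (−0.04 and 0.01). ZNF224, a repressor of metabolic genes, rose with 4OHT (0.37). ZNF146 was at 84.7, 86.9, 91.3, 94.3 and 96.5 CPM in DMSO, 84.4 to 107 (median 101) in 4OHT siNT and 103 to 123 (median 113) with siSMARCA4, and rose with the knockdown alone (log2 fold change 0.21, SE 0.07, adjusted p = 0.041), a call kept in 13 of 30 other fits. ZNF765, ZNF331 and ZNF382 passed in neither comparison.

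Factors of chromatin silencing and DNA methylation, whose recruitment by the zinc finger proteins was not tested, were listed as 25 cofactors. Of these, 1 rose with siSMARCA4, CBX3 (HP1γ, log2 fold change 0.41), and 6 fell: CHD4 (−0.39), DNMT3A (−0.35), DNMT1 (−0.27), EHMT1 (−0.26), MORC2 (−0.25) and EHMT2 (−0.24), with a median of −0.09 over the list. Of 30 other fits, the call was lost in 19 for MORC2, 12 for DNMT3A, 11 for DNMT1, 7 for EHMT2, 3 each for EHMT1 and CBX3 and 2 for CHD4. TRIM28 was at 333 ± 16.6, 325 ± 22.1 and 301 ± 11.3 CPM in DMSO, 4OHT siNT and siSMARCA4 libraries and did not pass in either comparison, nor did SETDB1, at 18.03 ± 1.29, 18.9 ± 1.09 and 18.2 ± 1.24 CPM. The calls with siSMARCA4 came to 4% higher and 24% lower, against 10.4% and 13.8% of all genes. With 4OHT, 4 of the 25 rose and 13 fell (16% and 52%, against 27.0% and 27.4%), with a median of −0.29.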

How the data were processed

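RNA was enriched for polyA and made into libraries with a directional kit. The authors trimmed reads with Cutadapt 4.7, aligned them to GRCh38 with HISAT2 2.2.1 keeping up to 100 alignments, and counted genes and single repeat loci with TElocal in reverse-stranded, multi-mapping mode. The deposited values are expected counts, in which a read with several positions is shared between them, so counts of near-identical genes depend on that sharing. The annotation is stated as Ensembl release 100, but the tables hold later identifiers, and 62700 of 62754 gene identifiers matched GENCODE 44.

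Expected counts were rounded, repeat loci were summed to 1258 subfamilies, and genes and subfamilies were filtered together with filterByExpr (minimum count 10, minimum total 15, about 0.19 CPM in 5 libraries), scaled by TMM and fitted with edgeR 4.0.16 in R 4.3.3, with 1 term per group over 17 libraries. Alternatives included DESeq2 1.42.0. The statistics were tested on simulated data. Members, lists and the clusters described at length were chosen with earlier results of these data known. The named genes were, per comparison, the 8 largest rises and 8 largest falls among called members whose libraries do not overlap, the 3 highest levels per kilobase, 12 members with a known role, TRIM28, SETDB1, the cofactors called, SMARCA4, and the first and last member of each cluster. ZNF878 and others listed as calls of a cluster or as members of a set fall outside that rule. The labels do not say whether shared tag numbers pair the libraries, and the main fit used no pairing.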

Additional observations from a re-analysis of the deposited data

Results flagged for a closer look

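In 10 of 177 group values looked at, 1 library stood apart from the rest of its group by Dixon's criterion, which chance does in about 1 in 20 groups. The siSMARCA4 library 4-3V was high for ZNF527, at 6.55 CPM (4.89 to 5.44 in the others), and for ZNF121, at 48.0 CPM (29.6 to 33.5), and low for ZNF114, at 0.0773 CPM (0.132 to 0.161). The DMSO library 4-3VM was high for ZNF791, at 25.6 CPM (17.9 to 19.97), and for ZNF101, at 6.85 CPM (4.36 to 4.84). The 4OHT siNT library 2-2VM was low for ZNF235, at 1.89 CPM (2.25 to 2.47), and high for ZNF554, at 4.63 CPM (3.76 to 4.05). Of the others, ZNF85 was at 2.12 CPM in the DMSO library 2-2VM (2.92 to 3.14), ZNF331 at 5.64 CPM in the 4OHT siNT library 4-1VM (6.65 to 7.10), and ZNF77 at 2.84 CPM in the siSMARCA4 library 2-1VM (2.53 to 2.65).

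The effect of siSMARCA4 differed between the siRNA numbers for ZNF880 of cluster 8 (chr19:52369917-52385795), which encodes a KRAB zinc finger protein. The log2 fold change against siNT was −0.53 with number 2 (adjusted p = 0.0037, edgeR) and 0.15 with number 4 (adjusted p = 0.50), a difference of −0.68 (SE 0.14, adjusted p = 0.030).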

How the results depend on the processing

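For siSMARCA4 against siNT in 4OHT, 47 members passed (42 higher, 5 lower), and 31 with siRNA number 2 only, 14 with number 4 only (median log2 fold change 0.24) and 31 of 146 without members whose exons overlap another gene. Leaving out 1 library at a time gave 29 to 50 calls, with the 2 lowest counts, 31 and 29, without the 4OHT siNT libraries 4-1VM and 4-2VM, and medians of 0.08 to 0.12. For 4OHT against DMSO in siNT, 116 passed, and 76 with number 4 only (30 higher, 46 lower, median −0.12) and 75 of 146 without overlapping exons (median 0.089); without TMM factors the median was −0.088. Leaving out 1 library gave 108 to 118 calls and medians of −0.02 to 0.04. For 4OHT siSMARCA4 against DMSO siNT, 127 passed, and 66 with number 4 only; without TMM factors the median was 0.067, and leaving out 1 library gave 114 to 127 calls and medians of 0.09 to 0.16. The difference between siRNA numbers was called for 1 member, and for 3 with the 4OHT libraries only. The rise of SMARCA4 with 4OHT, 0.44, was 0.33 with number 4 only (edgeR adjusted p = 0.23) and 0.35 to 0.47 with 1 library left out. With number 4 only, ZNF260 reversed to −0.021 with 4OHT (adjusted p = 0.91) and MPHOSPH8 to −0.13 for siSMARCA4 in 4OHT against DMSO siNT (adjusted p = 0.71). The within-number fits hold fewer libraries, with 2 in DMSO for number 4, and the exon setting fewer genes. Leaving out TMM factors shifts the log2 fold changes of all genes, not of the members alone. The cause of the other changes was not tested. With the tag number as a replicate block, 40 members passed with siSMARCA4 (35 higher, 5 lower). Libraries with the same full label deviated from their group means with correlations of −0.45 to 0.30. For libraries that share the tag number alone or with other parts of the label, the correlations ran from −0.45 to 0.53. Such correlations cannot decide whether the libraries were paired. DESeq2 called 49 higher and 6 lower of 239. Shares over all genes are not given beside the counts of this section, so changes in them cannot be read as particular to the members. Depth limits the 12 members left untested and ZNF492, ZNF730 and ZNF257.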
